A study of Mus musculus with 10 samples.

Results

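The collagen chains are the 42 genes whose platform symbol reads Col, a number, the letter a and a number, out of 18193 genes that the array names by a single symbol. They are covered by 82 probe sets, and a gene covered more than once is represented by its brightest probe set, judged by the mean of all 10 arrays. By the types in their symbols, 11 are fibrillar chains (types I, II, III, V, XI, XXIV and XXVII), 8 are basement membrane chains (types IV, XV and XVIII) and 23 belong to other types. The tissues came from male ICR mice, an outbred stock, aged 28 months. All mice ate the purified diet AIN-93 and were kept singly under specific-pathogen free conditions. From 8 months of age, 1 group of 10 mice had 1 to 2% LB81 yogurt in that diet, and the control group of 9 mice had none. LB81 yogurt is a milk product fermented by lactic acid bacteria. RNA of each mouse was pooled within a group in equal amounts, so jejunum, ileum, distal colon, liver and spleen have 1 array per diet each, 10 in all. The diets have no replicate check within a tissue, and values are the log2 expression values deposited by the authors.

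Collagens are trimers of chains wound into a triple helix, and which chains a cell makes decides which trimer it can build. Fibrillar types I, III and V form the banded fibrils that give the gut wall and organ capsules their strength, and type IV forms the sheet-like network of basement membranes under epithelium, muscle and vessels. Type VI forms beaded filaments around cells, types XII and XIV bind along fibrils, and types XV and XVIII carry sugar chains at basement membranes. Fibroblasts, smooth muscle cells, pericytes, liver stellate cells and endothelium are known sources of these chains. In aged tissue, collagen content and crosslinking are commonly studied as parts of fibrosis.

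Several partner chains lie side by side in the genome, and 4 promoter windows are printed because these pairs followed each other most closely over the tissues, as described further on. Each window runs from 250 bases before to 50 bases after the start of the gene in RefSeq, build GRCm38.p6, and is written 5′ to 3′ on the strand of the gene. The Col4a1 window is chr8:11312777-11313076 on the minus strand and the Col4a2 window is chr8:11312555-11312854 on the plus strand. Their starts lie 21 bases apart on opposite strands, and capitals mark the 78 bases that both windows hold.
Col4a1: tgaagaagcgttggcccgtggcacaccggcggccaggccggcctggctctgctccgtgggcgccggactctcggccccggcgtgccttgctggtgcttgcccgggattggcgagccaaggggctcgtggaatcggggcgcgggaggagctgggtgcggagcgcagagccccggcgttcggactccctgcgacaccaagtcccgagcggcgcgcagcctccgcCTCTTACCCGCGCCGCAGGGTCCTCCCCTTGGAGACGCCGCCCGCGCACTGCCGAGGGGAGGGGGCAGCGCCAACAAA
Col4a2: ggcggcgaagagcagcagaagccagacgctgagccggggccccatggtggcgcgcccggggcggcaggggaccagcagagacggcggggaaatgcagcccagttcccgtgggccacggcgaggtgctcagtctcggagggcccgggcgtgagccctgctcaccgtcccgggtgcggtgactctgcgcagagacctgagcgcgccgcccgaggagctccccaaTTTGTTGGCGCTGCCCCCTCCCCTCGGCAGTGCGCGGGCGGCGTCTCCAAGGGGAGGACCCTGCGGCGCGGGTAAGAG
Col6a1 and Col6a2 are also neighbours, both on the minus strand, but their windows do not overlap. The Col6a1 window is chr10:76725995-76726294 and the Col6a2 window, 1 of 2 listed for that gene, is chr10:76623355-76623654. Capitals mark matches to GGGCGG, the box bound by the Sp1 family, which reads CCGCCC on the other strand. The Col6a2 window holds 3 such matches, of which the last 2 overlap, and the Col6a1 window holds none.
Col6a1: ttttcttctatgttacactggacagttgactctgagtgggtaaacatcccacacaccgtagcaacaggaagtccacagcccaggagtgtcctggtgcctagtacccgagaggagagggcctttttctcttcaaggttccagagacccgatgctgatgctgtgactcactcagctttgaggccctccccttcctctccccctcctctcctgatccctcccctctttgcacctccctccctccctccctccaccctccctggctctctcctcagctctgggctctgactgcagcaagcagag
Col6a2: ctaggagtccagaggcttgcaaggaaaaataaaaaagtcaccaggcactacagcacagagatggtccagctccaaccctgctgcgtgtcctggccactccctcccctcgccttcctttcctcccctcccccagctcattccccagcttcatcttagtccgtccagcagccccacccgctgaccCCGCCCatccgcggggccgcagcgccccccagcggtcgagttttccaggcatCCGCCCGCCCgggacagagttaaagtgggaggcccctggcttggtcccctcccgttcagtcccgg
Across the family, 33 of the 42 genes matched the RefSeq table, with 36 windows. GGGCGG, searched on both strands, was found in 22 of these 36 windows (61.1%) and in 35.7% of all 32851 windows of that length. CCAAT was found in 36.1% against 37.4%, and TATAAA in 13.9% against 13.6%. A match is a run of letters, not a bound site, and no match says only that these letters are not in the window.

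The floor of each array was set at the 50th percentile of its probe sets, 5.42 to 5.50 on the log2 scale, and a gene above it was taken as measured. Above this floor, 18 collagen genes lay on all 10 arrays, 12 on some arrays and 12 on none. Those on none were the fibrillar chains Col11a1, Col11a2 and Col24a1, the type IV chains Col4a3 and Col4a4, and Col6a5, Col8a2, Col9a2, Col10a1, Col17a1, Col19a1 and Col26a1. Most of these are known from cartilage, kidney, lens or skin. Col11a2 came nearest, with values between 4.76 and 5.39, and Col6a5 lay lowest, between 3.07 and 3.35. The 30 genes above the floor on at least 2 arrays were compared between tissues: 8 fibrillar, 6 basement membrane and 16 other chains. Members that passed through 1 tissue alone, such as Col8a1 in distal colon, had to differ there, so counts over the 30 are descriptions and support nothing by themselves.

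The arrays matched their labelled tissues for the most part. Of 20 defining tissue markers on the array, all 20 were above the floor in their own tissue and 17 were highest there. The exceptions were Fabp1, Fabp2 and Car4. As a measure of RNA quality, the log2 ratio of 3′ over 5′ actin signal was 1.82 to 2.01 on the liver arrays and 0.66 to 1.09 on the others. For Gapdh it was 0.86 to 0.98 in liver, 1.01 to 1.29 in spleen and 0.05 to 0.23 in the gut.

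Among the 30 chains, distal colon had the highest mean of the 5 tissues for 15 and liver the lowest for 13. All 4 measured type IV chains, Col1a1, Col1a2, Col3a1, Col5a1, Col5a2, Col6a1, Col6a2, Col8a1, Col12a1, Col15a1 and Col16a1 were highest in distal colon. Liver was highest for 9 chains, among them Col18a1, Col14a1, Col5a3 and Col27a1. Ileum was highest for 4, jejunum for Col6a4 alone and spleen for Col7a1 alone. Several of these orders rest on steps smaller than the differences tested next.

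**Figure D1:**
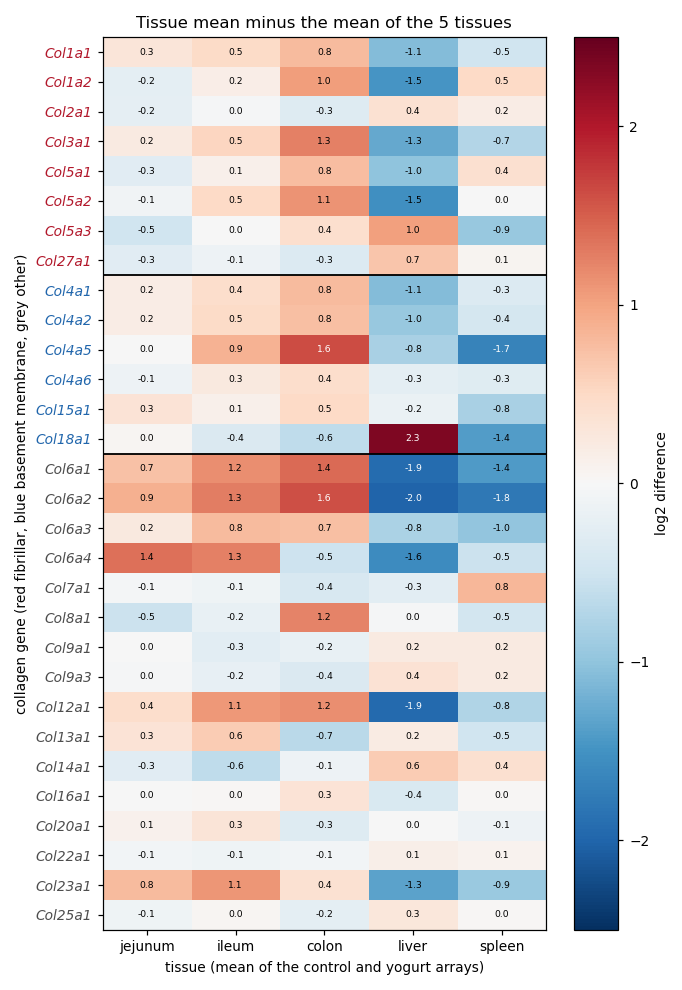
Mean of the control and yogurt arrays of each tissue minus the mean of the 5 tissues (log2), for the 30 chains above the floor on at least 2 arrays; rows are genes with fibrillar names in red, basement membrane names in blue and other names in grey. Most fibrillar, type IV and type VI rows are warm in distal colon and cold in liver, while the Col18a1 row is warm in liver and cold in spleen.

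Tissue differences were tested with limma on all 10 arrays, with tissue and diet as terms, 4 residual degrees of freedom and Benjamini-Hochberg adjustment over 13598 genes. A chain was called where its adjusted p was under 0.05 and the difference, with values under the floor raised to it, was at least 2-fold. All 5 tissues were taken from the same control and yogurt mice, so the error in this fit is the variation of diet ratios from tissue to tissue. It holds no estimate of the spread between mice or between replicate pools.

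The fibrillar chains Col1a2, Col3a1, Col5a1 and Col5a2 were lower in liver than in the other tissues, and Col5a3 was higher. Col1a2, the second chain of type I collagen, read 8.86 and 8.86 in liver (control, then yogurt), 10.02 and 10.19 in jejunum, 10.51 and 10.51 in ileum, 11.45 and 11.33 in distal colon, and 10.97 and 10.70 in spleen. Both liver arrays lay below the other 8 and both colon arrays above them. The difference between liver and the mean of the 4 other tissues was -1.85 ± 0.072 (log2 ± SE, adjusted p = 5.78e-09), a 3.60-fold difference. In the same bulk RNA, fewer cells of a type and less RNA per cell cannot be told apart, here and throughout.

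Col3a1, the single chain of type III collagen, read 9.13 and 9.21 in liver against 10.57 and 10.78 in jejunum, 10.94 and 11.04 in ileum, 11.74 and 11.69 in distal colon, and 9.84 and 9.60 in spleen. Liver was lowest and spleen next, with no overlap between them. Against the 4 other tissues, liver differed by -1.61 ± 0.073 (adjusted p = 1.93e-08). Col5a2, a type V chain that starts fibrils, read 6.46 and 6.58 in liver, 7.90 and 8.05 in jejunum, 8.53 and 8.56 in ileum, 9.24 and 9.12 in distal colon, and 8.21 and 7.90 in spleen. Here spleen and jejunum overlapped, and liver stood alone at the bottom (difference -1.92 ± 0.089, adjusted p = 2.16e-08). Col5a1, its partner in the type V trimer, read 6.79 and 6.56 in liver and between 7.36 and 8.55 on the other 8 arrays (difference -1.25 ± 0.11, adjusted p = 1.92e-06). Of 3 probe sets for Col5a1, 1 was nearly flat, at 5.37 to 5.81, and with the mean of all 3 the liver call was lost at -0.63.

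Col1a1, the main chain of type I collagen, was close to the floor on these arrays. Its values were 6.16 and 6.44 in jejunum, 6.26 and 6.72 in ileum, 6.63 and 6.95 in distal colon, 4.88 and 4.98 in liver and 5.55 and 5.46 in spleen. Its liver difference was -1.34 ± 0.11 (adjusted p = 1.58e-06), but with values raised to the floor it was -0.84, under 2-fold, and it was not called. Col5a3, another type V chain, went the other way. It read 7.12 and 7.01 in liver, 5.52 to 6.47 in the gut, and 5.02 and 5.18 in spleen, which is under the floor. In liver it was at least 2.27-fold higher than the mean of the 4 other tissues (adjusted p = 3.65e-07). Its other probe set lay under the floor on every array, and with the mean of both the call was lost at 0.0163, as it was under a 65th percentile floor, at 0.44. Col27a1 was also higher in liver, 9.01 and 8.76 against 7.81 to 8.29 elsewhere, at 1.82-fold and so not called. Col2a1, known from cartilage, lay near the floor, 4.81 to 5.75, and was not called.

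**Figure D2:**
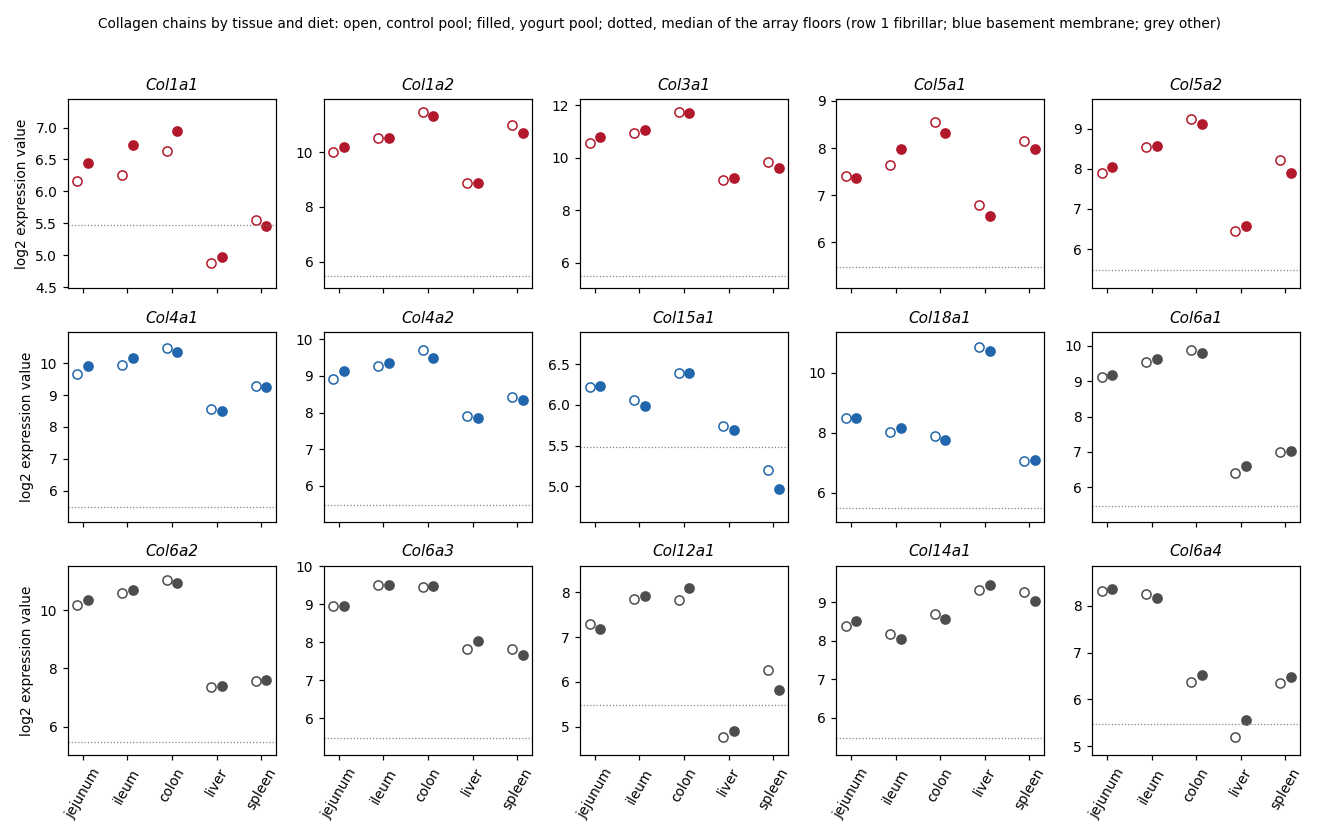
Log2 expression value (vertical axis, a scale of its own in each panel) of 15 chains by tissue, with the control pool as an open and the yogurt pool as a filled circle and the median array floor dotted. The open and filled circles of a tissue lie close together against the steps between tissues, as for Col1a2, whose liver values are 8.86 and 8.86 and whose colon values are 11.45 and 11.33.

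Among basement membrane chains, the type IV pair was lower in liver and Col18a1 far higher. Col4a1 and Col4a2, which together form the common type IV trimer, had the same order of tissue means. Col4a1 read 8.55 and 8.50 in liver, 9.27 and 9.27 in spleen, 9.67 and 9.92 in jejunum, 9.93 and 10.15 in ileum, and 10.47 and 10.34 in distal colon. Col4a2 read 7.91 and 7.85 in liver, 8.43 and 8.35 in spleen, 8.90 and 9.12 in jejunum, 9.26 and 9.35 in ileum, and 9.69 and 9.48 in distal colon. For both, the liver arrays were the lowest of the 10 and the spleen arrays came next. The liver differences were -1.36 ± 0.076 for Col4a1 (adjusted p = 9.09e-08) and -1.19 ± 0.078 for Col4a2 (adjusted p = 2.99e-07). With the mean of both its probe sets Col4a1 was at -0.94 and no longer called.

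Col18a1, the type XVIII chain whose end fragment is endostatin, had the largest difference of any chain. It read 10.86 and 10.72 in liver, 8.51 and 8.48 in jejunum, 8.03 and 8.16 in ileum, 7.89 and 7.76 in distal colon, and 7.05 and 7.08 in spleen. No tissue overlapped another, with ileum and colon closest. Liver exceeded the mean of the 4 others by 2.92 ± 0.066, 7.56-fold (adjusted p = 1.27e-10), and spleen by 3.73 ± 0.084, 13.2-fold (adjusted p = 1.37e-10). Its second probe set read 11.38 and 11.32 in liver and at most 8.17 elsewhere. Hepatocytes are known to make this chain, and 9 of 9 fitted hepatocyte markers were called higher in liver; their part in the Col18a1 difference was not tested.

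Col15a1, the other chain of this subfamily, showed no such step. It read 6.22 and 6.23 in jejunum, 6.06 and 5.99 in ileum, 6.39 and 6.39 in distal colon, 5.75 and 5.70 in liver, and 5.20 and 4.97 in spleen, the last under the floor. Col4a5, whose trimers include those around smooth muscle with Col4a6, spanned 8.05 and 8.09 in distal colon, 7.35 and 7.25 in ileum, 6.33 and 6.54 in jejunum, 5.37 and 5.88 in liver, and 4.96 and 4.59 in spleen. It was called lower in spleen, by -2.08 ± 0.14 as deposited and 2.60-fold with values raised to the floor (adjusted p = 3.35e-07), and in liver, by -1.02 ± 0.14 (adjusted p = 8.01e-05). In liver the floor also lifted spleen on the other side, which took the difference to -1.17, and with the liver values alone raised it was 1.99-fold. Both calls were lost with the mean of its 2 probe sets, at -0.78 and -0.71, and with a 65th percentile floor, at -0.63 and -0.58. Without the liver control array the liver call was lost too, at -0.97. Col4a6 stayed between 5.39 and 6.33 and was not called.

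The type VI chains Col6a1 and Col6a2 were far lower in liver and spleen than in the gut. Col6a2 read 10.17 and 10.35 in jejunum, 10.58 and 10.70 in ileum, 11.02 and 10.94 in distal colon, 7.35 and 7.39 in liver, and 7.58 and 7.59 in spleen. Col6a1 read 9.13 and 9.19, 9.55 and 9.63, 9.89 and 9.79, 6.40 and 6.62, and 6.99 and 7.02 in the same order. The 6 gut arrays and the 4 liver and spleen arrays formed separate groups for both chains, with over 2 log2 units between them. Against the 4 other tissues, Col6a2 was 5.63-fold and Col6a1 5.25-fold lower in liver (adjusted p = 1.42e-10 and 5.07e-10), and 4.70-fold and 3.41-fold lower in spleen (adjusted p = 3.55e-10 and 4.41e-09).

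Col6a3, the longest chain of the classical type VI trimer, read 8.97 and 8.96 in jejunum, 9.52 and 9.50 in ileum, 9.46 and 9.47 in distal colon, 7.82 and 8.03 in liver, and 7.82 and 7.65 in spleen. It was called lower in spleen, 2.35-fold (adjusted p = 7.91e-08), while in liver it was 1.99-fold lower and just missed the fold threshold. Col6a4, a chain that can take the place of Col6a3, had a pattern of its own within the gut. It read 8.32 and 8.36 in jejunum, 8.26 and 8.17 in ileum, 6.37 and 6.52 in distal colon, 5.21 and 5.56 in liver, and 6.35 and 6.49 in spleen. Colon and spleen overlapped, and both small intestinal segments stood above them. It was at least 3.64-fold lower in liver (adjusted p = 1.74e-08). Col6a4 has a second probe set, under the floor on every array, and the mean of both gave -0.58 without a call, as did a floor at the 65th percentile at -0.95.

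The fibril-associated chains split. Col12a1, common in tendon and in muscle layers, read 7.28 and 7.18 in jejunum, 7.86 and 7.91 in ileum, 7.84 and 8.09 in distal colon, 6.27 and 5.81 in spleen, and 4.77 and 4.92 in liver, which is under the floor. It was at least 3.59-fold lower in liver (adjusted p = 3.83e-08). In spleen it was called lower at 2.13-fold, but as deposited, with liver not raised to the floor, the difference was -0.94 ± 0.12 (adjusted p = 4.94e-05). Both calls ended with the floor at the 65th percentile, at -0.90 and -0.85, and that in spleen also at the 35th, at -0.94, and without the spleen yogurt array, at -0.83. The mean of its 4 probe sets was under the floor on every array, 4.44 to 5.23, so that average left no call in either tissue. Col14a1 had nearly the opposite order, with 9.30 and 9.45 in liver, 9.27 and 9.03 in spleen, 8.68 and 8.55 in distal colon, 8.38 and 8.51 in jejunum, and 8.16 and 8.04 in ileum. Both liver and spleen lay above all 6 gut arrays, at 1.73-fold and 1.43-fold above their respective other tissues, so neither was called.

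The remaining 7 fitted chains were called in no contrast. Col23a1, a transmembrane chain, read 6.45 and 6.21 in jejunum, 6.68 and 6.61 in ileum and 5.94 and 5.93 in distal colon, and lay under the floor in liver and spleen, at 4.20 to 4.69. Its liver difference was -1.68 ± 0.088 (adjusted p = 5.53e-08), but spleen was under the floor too, and raised to it the difference was 1.59-fold, short of a call. Col16a1, a chain that binds along fibrils, stayed between 6.58 and 7.39 with liver lowest. The type IX chains Col9a1 and Col9a3, known from cartilage, spanned 5.32 to 5.97 and 5.54 to 6.37. Col20a1 spanned 6.48 to 7.20, Col22a1 5.18 to 5.58 and Col25a1, a transmembrane chain of nerve cells, 5.93 to 6.61. These last 5 moved by under 1 log2 unit over all 10 arrays.

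Counted over the 30 chains, 11 were called lower and 2 higher in liver, where 14.9% and 11.2% of all 13598 genes were. Either way, 26.1% of all genes were called. By class, 4 lower and 1 higher of 8 fibrillar, 3 lower and 1 higher of 6 basement membrane, and 4 lower of 16 other chains were called. The median difference was -1.05 for fibrillar, -0.75 for basement membrane and -0.29 for other chains, against -0.13 over all genes. In spleen, 6 chains were called lower and 1 higher, against 17.3% and 11.4% of all genes and 28.7% either way, so the share of chains called there was near the background. None of the 8 fibrillar chains was called in spleen by limma, although 5 had an adjusted p under 0.05, also the number at an unadjusted p under 0.05. Among these, Col5a3 was at -1.18 as deposited. Both its spleen arrays lay under the floor, and with values raised to it Col5a3 was at least 1.73-fold lower. The spleen medians were 0.0131 for fibrillar and -0.58 for basement membrane chains.

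**Figure D3:**
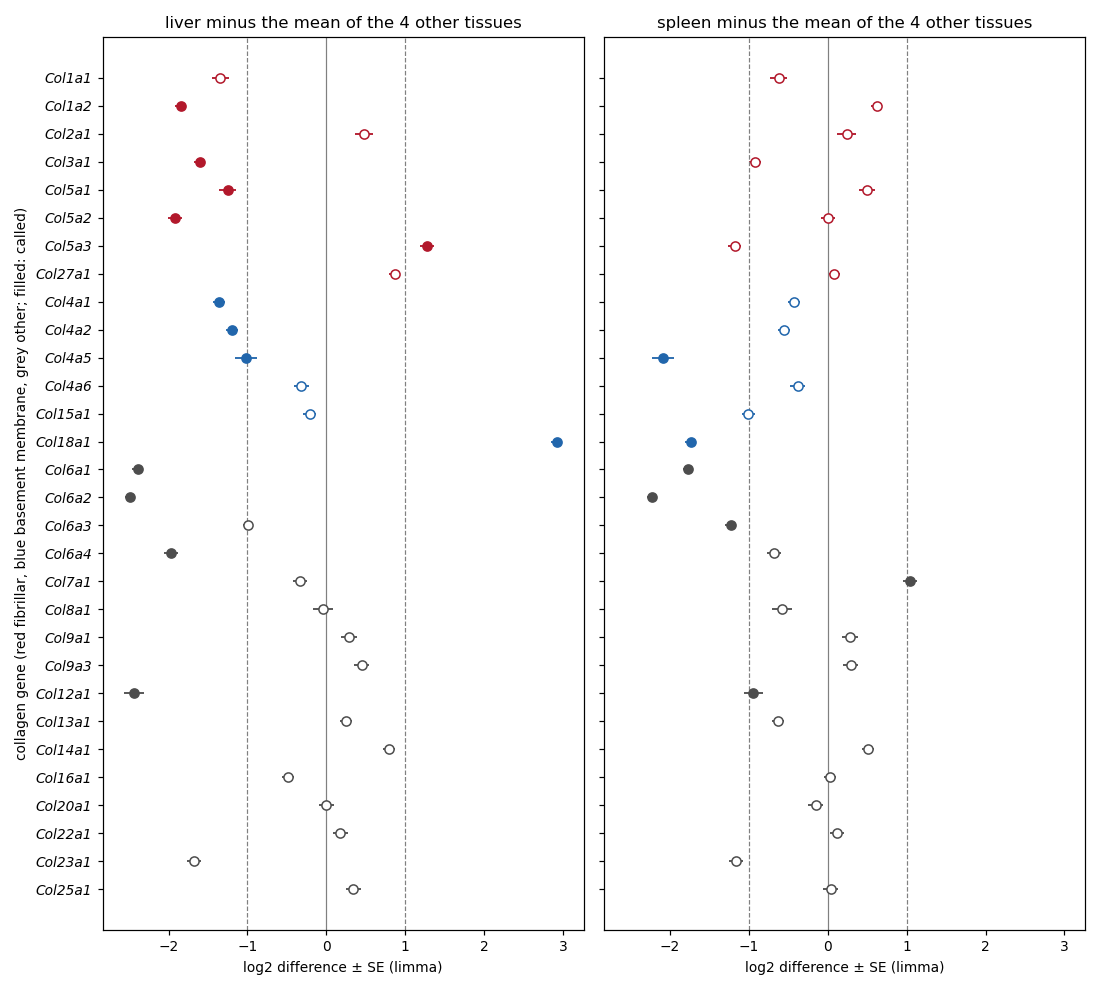
Difference (log2, ± SE from limma) of liver, left, and spleen, right, from the mean of the 4 other tissues for each of the 30 chains, with filled points for called chains and dashed lines at 2-fold. Calls use values raised to the floor, so Col12a1 is filled in spleen at -0.94 and Col1a1 open in liver at -1.34.

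Set directly against each other, liver and spleen differed for 6 chains, 2 higher and 4 lower in liver (16.3% and 16.9% of all genes, 33.2% either way). Besides Col18a1, Col5a3 was at least 2.99-fold higher in liver (adjusted p = 7.90e-08). Lower in liver were Col1a2 at -1.97 ± 0.091, Col5a2 at -1.53 ± 0.11 and Col5a1 at -1.40 ± 0.13 (adjusted p = 2.02e-08, 6.99e-07 and 4.97e-06). The fourth was Col7a1, the anchoring fibril chain that ties epithelial basement membrane to the tissue below. It read 6.82 and 7.02 in spleen and 5.62 to 6.19 on the other 8 arrays. Spleen was 2.05-fold above the other tissues (adjusted p = 2.13e-06) and liver was below spleen by 2.14-fold (adjusted p = 9.25e-06). Both Col7a1 calls were lost with the floor at the 65th percentile, at 0.30 and -0.42, and so was that of Col5a3, at 0.52. With the mean of their probe sets Col5a3 was at 0.0121, and Col5a2 and Col5a1 at -0.96 and -0.81, none of them called.

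Along the gut, 4 of the 8 fibrillar chains were called higher in distal colon than in jejunum. Col1a2 was 2.44-fold, Col5a2 2.31-fold, Col5a1 2.07-fold and Col3a1 2.06-fold higher in colon (adjusted p = 2.15e-06, 1.35e-05, 9.80e-05 and 1.02e-05). With the mean of all probe sets Col1a2 was at 0.82 and Col5a1 at 0.63, and neither was called. That mean for Col1a2 includes a set under the floor on every array. Its remaining set read 8.449 and 8.429 in colon and 7.345 and 7.445 in jejunum. Of the other 4, Col5a3 was 1.88-fold and Col1a1 1.41-fold higher (adjusted p = 7.01e-05 and 0.0114), short of the fold threshold, Col27a1 was at -0.049, and Col2a1 lay under the floor in both segments. Col4a5 was 3.10-fold higher (adjusted p = 3.77e-05). Col8a1, a short-chain collagen of vessel walls, was above the floor on both colon arrays, at 6.74 and 6.66, and on 1 liver array, at 5.66. It was at least 2.33-fold higher in colon, but it passed the filter only through colon and so had to differ there. Its other probe sets read 5.80 and 5.83, and 4.17 and 4.18, in colon, and the mean of the 3 gave 0.0845, with no call. With the floor at the 65th percentile it was above the floor on too few arrays to be fitted. Lower in colon were Col6a4, 3.72-fold, and Col13a1, a transmembrane chain found at cell contacts, 2.02-fold (adjusted p = 6.62e-07 and 1.36e-05). Col13a1 read 6.72 and 6.73 in jejunum, 7.00 and 7.04 in ileum, 5.64 and 5.78 in distal colon, 6.57 and 6.60 in liver, and 5.87 and 5.89 in spleen. Distal colon was thus its lowest tissue, with spleen just above.

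Over the 30 chains, 6 were called higher and 2 lower in colon than in jejunum, against 7.68% and 4.52% of all genes and 12.2% either way. Of these, 4 of the 8 fibrillar, 1 of the 6 basement membrane and 1 of the 16 other chains were higher. Fibrillar chains had a median difference of 0.98, basement membrane chains of 0.57 and other chains of -0.0673, against 0.0714 over all genes. Without the distal colon control array 5 chains were called, Col3a1, Col5a1 and Col13a1 falling just short at 1.00, 0.96 and -0.96. Without the jejunum control array Col3a1 and Col13a1 were at 0.92 and -0.99. Quantile normalization left Col5a1 at 0.98, and the floor at the 65th percentile Col13a1 at -0.0029.

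Against ileum, distal colon had 1 chain higher and 2 lower (4.89% and 3.99% of all genes, 8.88% either way). Col6a4 and Col13a1 were 3.41-fold and 2.48-fold lower (adjusted p = 1.53e-06 and 3.43e-06). Col8a1 was at least 2.33-fold higher, which again follows from its passing the filter only through colon. The mean of all probe sets ended the calls of Col8a1 and Col6a4, and a floor at the 65th percentile that of Col13a1, at 0.0824, -0.84 and -0.30. No chain was called between jejunum and ileum, where 4.96% of all genes were (2.26% higher and 2.7% lower in jejunum). By limma, 18 of the 30 had an unadjusted p under 0.05 and 16 an adjusted p under 0.05, all at under 2-fold. The largest shift there, that of Col4a5, was -0.86 ± 0.18 (adjusted p = 0.00414).

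Chains that form a trimer together followed each other to different degrees. Over the 5 tissue means, Pearson's r was 0.997 for Col6a1 and Col6a2, 0.994 for Col4a1 and Col4a2, 0.980 for Col6a2 and Col6a3 and 0.930 for Col5a1 and Col5a2. These pairs include those of the printed promoter windows, with and without a shared stretch. For Col1a1 and Col1a2 r was 0.749, with spleen near the top for Col1a2 and near the floor for Col1a1. Col3a1 and Col5a2, neighbours on chromosome 1 that do not share a trimer, had 0.911. The type IV chains Col4a5 and Col4a6 had 0.961 and the type IX chains Col9a1 and Col9a3 had 0.948. In contrast, r was -0.351 for the type V chains Col5a3 and Col5a2. For pairs of different types, which do not share a trimer, r was 0.129 for Col15a1 and Col18a1 and -0.906 for Col12a1 and Col14a1. Over all 153 pairs of the 18 chains above the floor on every array, the median r was -0.014 and the range -0.992 to 0.997. Each r rests on 5 points that share their arrays, so it is a description only.

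Genes that help build or hold collagen were taken from lists of the pathway. The genes named from them for tissues were chosen after their values were seen. Fibril assembly partners, the proteoglycans and glycoproteins that coat or space fibrils, had 12 of 24 fitted genes called higher in distal colon than in jejunum and none lower, where 7.68% and 4.52% of all genes were. Among them were Postn, a matrix protein that promotes crosslinking, at 3.64 ± 0.14, Lum, a fibril-spacing proteoglycan, at 1.87 ± 0.18, and Dcn, which binds fibrils, at 1.28 ± 0.11 (adjusted p = 3.86e-08, 1.60e-05 and 9.79e-06). For chain modification, crosslinking and cleavage, the proline hydroxylase subunit P4ha2 was at least 3.04-fold higher in colon. The lysine hydroxylase Plod2 was at least 2.39-fold higher there. The jejunum control array of P4ha2 and both jejunum arrays of Plod2 lay under the floor. The crosslinking enzyme Loxl1 was at 1.74 and the cleavage enhancer Pcolce at 1.76, both also called higher in colon. Against the same 7.68% and 4.52%, 3 of the 13 hydroxylation genes were higher and none lower, and 1 of the 6 crosslinking genes was higher. The degradation list holds proteases and their Timp inhibitors. Of its 16 fitted genes 5 were higher and 2 lower, the epithelial protease Mmp7 lowest at -3.99.

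In liver, 9 of 24 fibril assembly partners were called lower and 2 higher, against 14.9% and 11.2% of all genes. The higher were Fn1, the fibronectin that hepatocytes also secrete into plasma, at 2.93 ± 0.11, and Lum, at least 2.11-fold because spleen lay under the floor (adjusted p = 5.84e-09 and 2.24e-05). Of 14 basement membrane partners, 7 were lower and none higher, with the laminin chains Lama2 at -1.40 and Lamc1 at -1.07. Lamb1 was at -1.42 as deposited, with spleen under the floor. Collagen receptors were also uneven, with Ddr1, a receptor kinase of epithelia, at -3.36 and Ddr2 at -1.48, and the endocytic receptor Mrc1 at 1.38. In spleen, Lum was under the floor and at least 10.5-fold lower, Dcn was at -2.03 and Fn1 at -1.66, while Bgn and Sparc, both binders of collagen, were at 1.19 and 1.03. Serpinh1, the chaperone that fibrillar chains need to leave the cell, was at -1.80 ± 0.076 in spleen (adjusted p = 1.11e-08). There 9 of 24 fibril partners were lower and 3 higher, and 6 of 14 basement membrane partners were lower and 1 higher, against 17.3% and 11.4% of all genes. The higher share of fibril partners was thus near the background.

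Markers of cells known to make collagen were compared between colon and jejunum, and for liver and spleen against the other tissues. In these contrasts most smooth muscle and fibroblast markers were called, and fewer of those of pericytes, stellate cells and endothelium. Smooth muscle markers were called higher in distal colon than in jejunum for 11 of 16 genes (7.68% of all genes), lower in liver for 14 (14.9%) and lower in spleen for 12 (17.3%). Their summed level on the linear scale was 22185 to 24729 in jejunum, 36028 to 39993 in ileum, 51124 to 58838 in distal colon, 7204 to 7329 in liver and 8620 to 8750 in spleen. In liver 7 of the 16 were not above the floor, Myh11, Actg2 and Cnn1 among them. Fibroblast markers were higher in colon than in jejunum for 7 of 15 and lower for 1, lower in liver for 10 and higher for 1, and lower in spleen for 6 and higher for 3. Their summed level was 7765 to 9112 in jejunum, 19113 to 20430 in distal colon, 6589 to 6619 in liver and 9370 to 9852 in spleen. Of 12 pericyte and stellate cell markers, 2 were higher and 1 lower in colon than in jejunum, 2 were higher and none lower in liver, and 4 were lower in spleen, with medians of 0.38, -0.0039 and -0.32. With liver set directly against spleen, 6 of these 12 were higher and 2 lower in liver (median 0.89), against 16.3% and 16.9% of all genes. Of 12 endothelial markers, 1 was higher in colon, 2 were higher and 1 lower in liver, and 2 were higher and 1 lower in spleen, with medians of -0.0167, 0.0754 and 0.25. Of all genes, 7.68% were higher and 4.52% lower in colon than in jejunum, 11.2% and 14.9% in liver, and 11.4% and 17.3% in spleen. The endothelial counts were thus near the background. Lum and Dcn stand on both the fibroblast list and that of fibril partners. The part of cell makeup in the collagen differences was not tested, nor was that of the 3′ to 5′ ratios given above.

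Turning to diet, no collagen chain differed by 1.5-fold or more between the yogurt and control pools in any tissue. Of all measured genes, 0.88% did so in jejunum, 0.504% in ileum, 1.04% in distal colon, 0.839% in liver and 1.73% in spleen. None reached 2-fold, which 0.35%, 0.0976%, 0.372%, 0.197% and 0.328% of all measured genes did in that order. The chains measured numbered 27, 27, 28, 27 and 25. The largest ratio was that of Col1a1 in ileum at 0.46 (log2 yogurt over control, 1.38-fold), but its other probe set, above the floor there, read 6.07 in the control and 5.87 in the yogurt pool, a ratio of -0.20. Next were Col4a5 in liver at 0.45, a bound because the control lay at the floor, and Col12a1 in spleen at -0.45. There is 1 array per diet in each tissue, so these ratios carry no test.

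Of 7 measured fibrillar chains, 5 were higher in the yogurt pool in jejunum and in ileum, and 2 in distal colon, 3 in liver and 2 in spleen. Over all measured genes the shares higher were 46.5% in jejunum, 37.9% in ileum, 45.4% in distal colon, 42.2% in liver and 38.5% in spleen, so that most genes were lower in each tissue and the fibrillar counts in spleen and liver were near that background. In jejunum the median log2 ratio was 0.15. Col1a1 was at 0.28, Col3a1 at 0.21, Col1a2 at 0.17 and Col5a2 at 0.15, while Col5a1 was at -0.049. In ileum the median was 0.028, with Col1a1 and Col5a1 at 0.46 and 0.33 and Col1a2 at -0.002. The other probe sets of both went the other way there, at -0.20 for Col1a1 and at -0.19 and -0.054 for Col5a1. In distal colon the median was -0.0945 and Col1a1 stood above the rest at 0.32, while its other probe set was at -0.007. Col5a1 was at -0.22, Col1a2 at -0.12, Col5a2 at -0.12 and Col3a1 at -0.047. In spleen the median was -0.17, with Col5a2 at -0.31, Col1a2 at -0.28 and Col3a1 at -0.24. In liver it was -0.12, with Col27a1 and Col5a1 at -0.25 and -0.24, while Col1a2 was at 0.001.

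The basement membrane chains had a median of 0.11 in jejunum, where 5 of 6 were higher (46.5% of all measured genes), and of -0.14 in distal colon, where 1 of 6 was higher (45.4%). Col4a1 and Col4a2 had ratios of 0.25 and 0.22 in jejunum, 0.22 and 0.094 in ileum, -0.14 and -0.22 in distal colon, -0.051 and -0.052 in liver, and -0.004 and -0.084 in spleen. With the probe sets used, the sign was shared by both chains in all 5 tissues, as it was for Col6a1 and Col6a2. A second Col4a1 set was at 0.044 in liver and a second Col6a2 set at -0.025 in jejunum, each opposite in sign to the partner chain. Col18a1 stayed between -0.14 and 0.13. Other chains had medians of 0.0005, 0.0172, -0.0144, 0.10 and 0.0184 in jejunum, ileum, colon, liver and spleen. In liver 12 of 14 of them were higher, Col7a1 at 0.24, Col6a1 at 0.22 and Col6a3 at 0.20, against 42.2% of all measured genes. The medians over all measured genes were -0.0109, -0.0396, -0.0145, -0.0259 and -0.0486 in the same order, and some class medians are no larger than these.

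**Figure D4:**
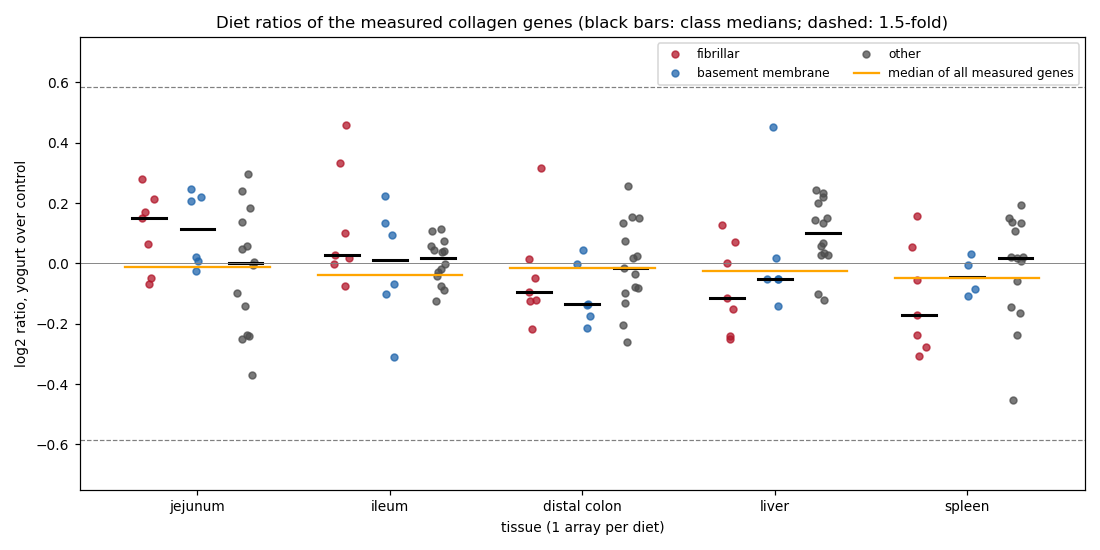
Log2 ratio of the yogurt over the control pool for each measured chain, by tissue and class, with black bars at class medians, orange lines at the median of all measured genes and dashed lines at 1.5-fold. Every point lies within the dashed lines, and the fibrillar median runs from 0.15 in jejunum to -0.17 in spleen.

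Over the 5 tissues together, the diet term of the limma fit called none of the 30 chains, where it called 12 of 13598 genes (0.0882%; 0.0368% higher and 0.0515% lower). At an unadjusted p under 0.05 there were 2. Col1a1 had a mean ratio of 0.21 ± 0.21 (SD, n = 5 tissues) and was higher in 4 of 5 (limma adjusted p = 0.432), while its other probe set had a mean of -0.033 ± 0.32. Col7a1 had a mean of 0.17 ± 0.13 (SD, n = 5 tissues) and was also higher in 4 of 5 (limma adjusted p = 0.443). Both means use values as deposited, without the floor, and Col1a1 lay under the floor on both liver arrays and on 1 spleen array. The mean ratio of Col1a2, the partner of Col1a1, was -0.046 ± 0.17 and that of Col3a1 was 0.021 ± 0.17 (SD, n = 5 tissues).

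The diet medians of partner genes and cell type markers had the sign of the fibrillar median in some tissues and lists and not in others. Fibril assembly partners were higher for 17 of 21 genes in jejunum (median 0.18, 46.5% of all measured genes higher), led by Lum at 0.61, Prelp at 0.52 and Thbs1 at 0.46. In distal colon 5 of 24 were higher (median -0.0919, against 45.4%), with Tnxb at -0.34 and Prelp at -0.32, and Thbs2 at 0.36. In spleen 6 of 18 were higher (median -0.20), close to the 38.5% of all measured genes, with the fibril-binding Dpt at -0.63, Fn1 at -0.39 and Postn at -0.37. Collagen receptors were higher for 7 of 7 in jejunum (median 0.20) and lower for 7 of 8 in spleen (median -0.16), Ddr2 at 0.33 and -0.47. In spleen the medians of other lists went the other way. Crosslinking genes were higher there for 5 of 6 (median 0.0755) and fibroblast markers for 7 of 11 (median 0.0640). The largest fibroblast marker ratios in spleen were still negative, with Dpt at -0.63, Pdgfra at -0.39 and Dcn at -0.33. The summed level of these markers on the linear scale went from 9852 in the control to 9370 in the yogurt pool. Of the profibrotic signals, 14 of 17 were higher in jejunum (median 0.0931), led by the connective tissue growth factor Ccn2 at 0.39, and 11 of 16 lower in colon (median -0.0762). Several of these shifts in matrix and muscle genes were known from earlier results of the same arrays and are not independent of them.

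Smooth muscle markers had a median of 0.16 in jejunum (15 of 16 higher), 0.14 in ileum (16 of 16 higher) and -0.26 in distal colon (16 of 16 lower). Their summed level on the linear scale went from 22185 in the control to 24729 in the yogurt pool in jejunum and from 58838 to 51124 in distal colon. Fibroblast markers had 12 of 14 higher in jejunum (median 0.17) and 12 of 15 lower in colon (median -0.10). Of the 3 higher in colon, Dpep1 was at 1.25, the only fibroblast marker there at 1.5-fold or more. Markers of pericytes and stellate cells had medians of 0.20 in jejunum, -0.0920 in distal colon and -0.20 in spleen. Exocrine pancreas markers were higher for 15 of 15 in jejunum, with summed levels of 32852 in the control and 88994 in the yogurt pool. Adipocyte markers were higher for 5 of 6 in distal colon, with 2092 and 4693, and for 6 of 7 in ileum, with 2396 and 4426. With 1 pool per diet, the cells sampled and the diet cannot be told apart.

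**Figure D5:**
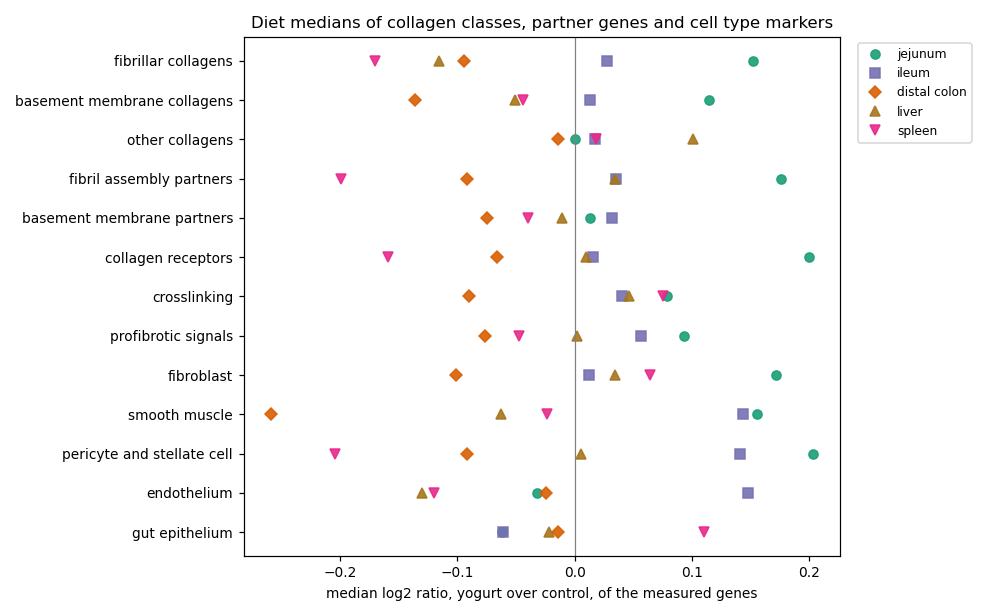
Median log2 ratio of yogurt over control for the collagen classes, partner gene lists and cell type markers (rows), with 1 symbol per tissue. In the fibrillar, fibril assembly partner, fibroblast and smooth muscle rows the jejunum symbol lies to the right of 0 and the distal colon symbol to the left, at 0.16 and -0.26 for smooth muscle.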

How the data were processed

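Microarray values of 10 arrays, each of 1 RNA pool of 9 or 10 mice amplified from 100 ng, were used as the authors deposited them, as log2 expression values per probe set (45101, of which 64 are array controls). MAS5 and affy stand in the submitters' processing notes without a role; the summary and scaling steps are "not given in the sources used here". Symbols came from the platform annotation: 34945 probe sets had a single symbol, of which 34741 were matched by gene number to RefSeq GRCm38.p6, and 932 had several and were left out. Sets with the suffix x_at or s_at may also bind related genes. The number of arrays limits the precision.

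For ratios, each array's 50th percentile served as a floor to which lower values were lifted, and a tissue's measured genes had at least 1 of 2 arrays above it. A ratio is given as a bound ("at least") where the lower side alone held arrays under the floor. Tissue contrasts and the diet term were fitted to unfloored values with limma 3.58.1 in R 4.3.3 (lmFit, eBayes with trend), and the script was tested on simulated data. Named were the main fibrillar, type IV and VI, XII, XIV, XV and XVIII chains, up to 5 called chains per contrast and direction, and up to 3 genes per list with the largest diet ratio. Other members are named to account for them. The members, classes and lists were chosen with earlier results of these data known. Alternatives were other floors, a pseudocount of 32, quantile normalization, centring, probe set averages, no x_at or s_at sets, no filter, no diet term, eBayes without trend, and floored values in the fit. Each array or tissue was also left out, though without a whole tissue no tissue contrast was fitted. The lists of endothelium, mesothelium, enteric glia, gut epithelium and lymphocytes were computed too. Their diet medians in jejunum were -0.0320, -0.0110, -0.0034, -0.0620 and 0.11.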

Additional observations from a re-analysis of the deposited data

Results flagged for a closer look

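The median diet ratio of the fibrillar chains had opposite signs between tissues: 0.15 in jejunum, against -0.12 in liver and -0.17 in spleen. That of the basement membrane chains was 0.11 in jejunum and -0.14 in distal colon. These medians were picked out because they lie on opposite sides of 0 and at least 0.1 away from it. The difference between tissues was not tested, since each ratio comes from 1 array per diet. In liver the fibrillar median became 0.0013 under a lower floor (35th percentile), 0.0017 under a pseudocount and 0.0050 when all probe sets of a gene were averaged. The jejunum medians were 0.0387 (fibrillar) and 0.0093 (basement membrane) with the pseudocount.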

How the results depend on the processing

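The labels give no replicate numbers, so no paired analysis was possible beyond the fit itself. Its tissue contrasts compare tissues within a diet, and its diet term compares diets within a tissue. Of 247 alternative values for results that answer a comparison, 232 stayed within 0.1 (log2) or 1.5 times the count and 15 moved. The sign changed for 14, all of them medians of diet ratios or differences of such medians, 5 of these among the values that moved. The fibrillar minus basement membrane median moved in jejunum from 0.0375 to -0.0678 (floor at the 65th percentile). It moved in liver from -0.0649 to 0.0520 (floor at the 35th), 0.0479 (pseudocount) and 0.0563 (mean of all probe sets), and in spleen from -0.13 to -0.0071 (35th), -0.23 (65th) and 0.0327 (pseudocount). With the mean of all probe sets, 1 chain was called between colon and ileum, 5 between colon and jejunum, 7 in liver and 3 between liver and spleen. With the floor at the 65th percentile, 1 was called between colon and ileum and 4 in spleen. Leaving out 1 array or tissue gave 0 to 1 calls between jejunum and ileum (1 without the ileum yogurt array), 3 to 3 between colon and ileum, 5 to 8 between colon and jejunum (5 without the colon control array), 12 to 14 in liver, 6 to 8 in spleen, 6 to 6 between liver and spleen, and 0 to 0 for diet. Of 37 calls of single chains, 16 were kept under every alternative run and 21 lost under at least 1; over 597 such values, 563 kept the call and 34 lost it. The cause of these changes was not tested. Signal near the floor limits Col1a1, Col4a5, Col5a3, Col8a1 and Col12a1.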

Other observations

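Some genes of the degradation list, which holds proteases and their Timp inhibitors, had diet ratios outside those of the chains themselves. In spleen, the neutrophil collagenase Mmp8 went from 6.87 in the control to 7.59 in the yogurt pool and the gelatinase Mmp9 from 6.79 to 7.44, ratios of 0.72 and 0.66, the only 2 of 11 measured degradation genes there at 1.5-fold or more. Mmp9 was also called higher in spleen than in the other tissues, at least 2.68-fold, with 4 of the other 8 arrays under the floor (limma adjusted p = 1.14e-05). Mmp8 was at least 3.31-fold higher there, but 7 of the other 8 arrays lay under the floor. It passed the filter only through spleen and so had to differ there. In the same pools the vesicle coat gene Sec24d, needed to export procollagen, was at -0.57 and the folding enzyme Fkbp14 at -0.47. Hspg2, the basement membrane proteoglycan perlecan, was at 0.67 in spleen and -0.47 in jejunum. In liver 9 of 10 measured genes of the degradation list, proteases and inhibitors together, were higher in the yogurt pool (median 0.12), against 42.2% of all measured genes. None of these diet ratios has a replicate.

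Different probe sets of 1 chain did not always show the same tissue order. A second set of Col4a1 read 7.08 and 7.13 in liver and 6.89 and 6.54 in spleen, so that spleen and not liver was lowest. A second set of Col12a1 stayed between 5.27 and 5.98 over all tissues, while the set used spanned 4.77 to 8.09.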
